A study of Mus musculus with 3072 samples.

Results

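The cells described here are the hemoglobin-high CFU, the 154 sorted CFU cells whose RNA held the most adult globin within their own mouse. The series holds 3072 wells of single bone marrow cells, sorted as HSC, CFU or MkP from 8 C57BL/6 mice of genotype WT that had received barcoded stem cells by transplantation. CFU wells made up 766 columns of the count table. Of these, 627 held at least 20000 counts and 1000 to 10000 genes, with a mitochondrial share of no more than 20%. Each of these 627 cells was given a globin score, the sum of Hba-a1, Hba-a2, Hbb-bs and Hbb-bt in CPM, which are counts scaled to one common library total. The members were chosen by that score: the cells of each mouse were ranked and divided into 4 score groups, and the top group, 17 to 22 cells a mouse, is the hemoglobin-high one. Below it lie the mid-high group (162 cells), the mid-low group (157 cells) and the bottom group, the 154 hemoglobin-low CFU, which served for comparison. The cells of a group were summed per mouse, so that the mouse and not the cell was the replicate.

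The 4 control mice were taken at week 32 after transplantation and the 4 platelet-depleted mice at week 28. The codes of control and depleted mice also open differently. Treatment, week and the opening of the code coincide, and therefore their effects cannot be told apart. The donor cells carried a barcode in both groups. The labels name neither the antibodies of the CFU gate nor the agent that removed platelets, and the mouse was read from the code that opens each well's title. The libraries were Smart-seq2, which copies whole transcripts and has no molecular identifiers, so counts are reads after amplification.

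Red cell precursors pass from Kit-dependent progenitors to erythropoietin-dependent cells, which divide a few more times while they make hemoglobin. Hemoglobin is built of alpha and beta globin chains, each holding a heme group with an iron atom. Heme is made in mitochondria and cytosol by a chain of enzymes that starts with Alas2 in erythroid cells and ends with Fech. In the same period the cell builds a membrane skeleton of spectrin and ankyrin, anchored to the anion exchanger Slc4a1, also known as band 3.

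The CFU cells were erythroid by markers the score did not use. Outside the score globins, 153 of the 154 members held at least 8 of 10 erythroid markers at 5 CPM or more, and 1 held under 50 CPM of Klf1, an erythroid transcription factor. In the low group these counts were 139 of 154 and 15 of 154. Among all 627 cells, 609 held at least 8 of these 10 markers. The deposited table of wells names the 69 passing CFU cells of control mouse 2 MkP, against their labels and well names. All 69 of those cells had at least 50 CPM of Klf1, with a median of 616 CPM, and their median for Pf4, a platelet chemokine, was 8.45 CPM.

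Cells that held markers of another type were mostly in the low group. At least 3 markers of a myeloid progenitor, neutrophil, B cell, T and NK cell, mast cell or macrophage list at 5 CPM or more were found in 19 of 154 hemoglobin-low cells and in 2 of 154 hemoglobin-high cells. In the mid-low and mid-high groups, 2 of 157 and 5 of 162 cells held such a list. Of the 19 low cells, 9 came from control mouse 3 and 5 from depleted mouse 2. The 10 myeloid progenitor markers summed to 3.04 to 5180 CPM in the low sums and to 0.0441 to 2.78 CPM in the high sums. The 9 neutrophil markers reached 16100 CPM in a low sum and at most 9.35 CPM in a high sum, where Cebpe, Mmp8 and Retnlg had no count. The 8 B cell markers reached 827 CPM in a low sum and 0.372 CPM in a high one, where Pax5, Igll1 and Rag1 had no count. The 9 macrophage markers summed to 2.74 to 97.2 CPM in low and 1.72 to 10.8 CPM in high sums. A further fit left out all 28 such cells and cut the score groups anew. Of 42 named genes called lower in the high sums, 37 were called lower in that fit too, and Fos, Mpo, Nkg7, Osm and Vim were not.

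Depth overlapped between the groups. A passing CFU cell held 30783 to 5181094 counts, with a median of 2375104. The median cell of a mouse held 1758431 to 2821571 counts in the high group and 1889696 to 3139898 in the low group. The share of mitochondrially encoded counts had medians of 2.78% to 3.77% over mice in the high group and 2.89% to 4.04% in the low group.

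The values that chose the members are given as a description. The median score was 1031 CPM in the 154 members, 194 CPM in the mid-high, 55.8 CPM in the mid-low and 4.37 CPM in the low group. By mouse, the median member scored between 626.5 CPM in control mouse 3 and 1676 CPM in control mouse 4. The cut fell at different levels, since the lowest member scored 290.4 CPM in depleted mouse 2 and 986.0 CPM in control mouse 4. Just outside the cut, the highest mid-high cell scored 282.6 CPM in depleted mouse 2 and 904.8 CPM in control mouse 4. In all, 33 cells lay within 10% of their mouse's cut. The cut was set by rank, so cells near it cannot tell whether the members are a separate type, which was not tested.

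**Figure D1:**
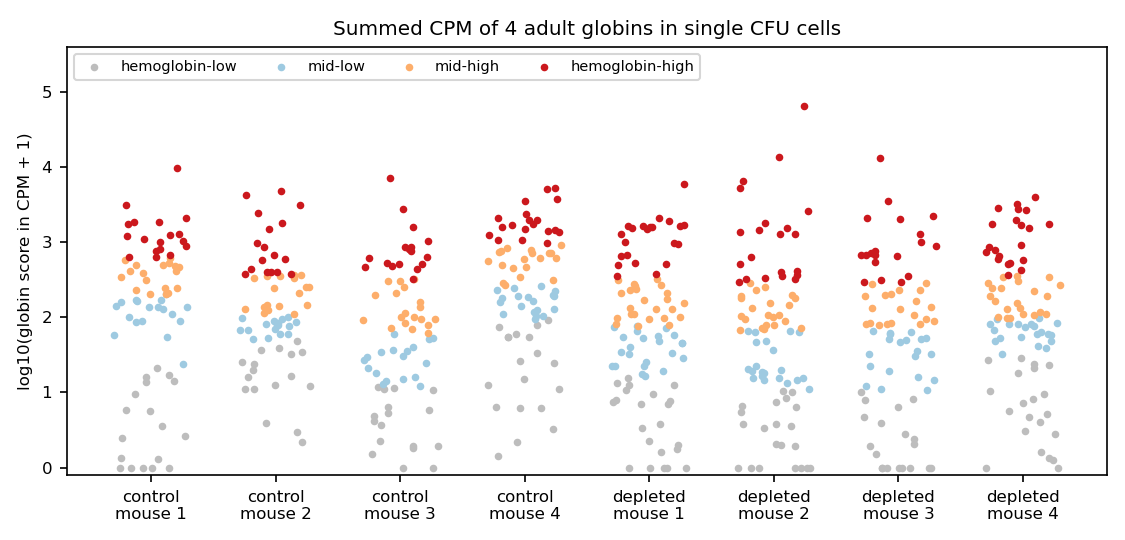
Globin score of each passing CFU cell by mouse, on a log10(CPM + 1) axis, with the score groups cut within each mouse in colour. The scores run without a gap across the cuts, and 1 cell of depleted mouse 2 stands far above the others at 65751 CPM.

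A few cells carried much of the globin RNA. The highest member scored 65751 CPM, in depleted mouse 2, and the highest in the other mice scored 3970.7 to 13178 CPM. The top cell of a mouse held 9.3% to 39.3% of the score counts of all its members. Sorted HSC gave a background for these genes. Their median score was 0 CPM over 80 cells of control mouse 2 and 0.369 CPM over 90 cells of depleted mouse 1, with single cells up to 701 CPM.

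Among the 4 globins, Hba-a1 had the most counts. In the high sums its level was 719.3, 923.5 and 1742 CPM in the lowest, median and highest mouse. Hbb-bs was at 151.3, 295.1 and 719.1 CPM, Hbb-bt at 122.2, 170.1 and 355.6 CPM, and Hba-a2 at 51.56, 98.71 and 183.0 CPM. Per kilobase of exon, the median mouse held 1137 CPM of Hba-a1, 384 of Hbb-bs, 242 of Hbb-bt and 148 of Hba-a2. The copies of each chain are nearly identical, and how reads that match both were counted is not stated, so the split between copies is uncertain.

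Alpha chains made up a smaller part of the score in the high group than in the group under it. They took 63.4% to 74.8% of score counts in the high sums, with a median of 68.3%, and 75% to 83.7% in the mid-high group. In the low group the range was 62.1% to 92.7%. The ranges of the high and mid-high groups nearly met, at 74.8% and 75%. The top cell of a mouse held up to 39.3% of its members' score counts. No test is given, and the lack of overlap is no support, because these genes chose the cells.

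Embryonic globins were almost absent. Hbb-bh1 had 39 counts in 1 member and Hba-x had 38 counts in 1 member, while Hbb-bh2 had none in any of the 627 cells. Hbb-y had 16 counts in 1 member and 16 counts in 1 mid-low cell. The theta-like globin Hbq1b was different, with 1 count in all low cells together and 1096 counts in 26 members. Its level in the high sums was 0.476, 2.17 and 7.16 CPM in the lowest, median and highest mouse, above the highest low sum of 0.0195 CPM. Of 10 other genes of the globin family it alone passed the expression filter, and it was called higher with an adjusted p of 1.21e-05 in edgeR's quasi-likelihood test. It passed that filter through the high sums alone, so the direction of the call was fixed beforehand. The ratio of pooled levels was 1070 with a counting interval of 192 to 42300, and the split from its near copy Hbq1a is uncertain.

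Promoters of 4 genes are shown because their RNA defined or marked the ends of the globin ranking: 2 globins of the score, the first heme enzyme and the falling receptor gene Kit. Each is the 250 bases before the transcription start in RefSeq on GRCm38.p6, read 5′ to 3′ on the gene's strand. Capitals mark AGATAA, bound by GATA factors, and CCNCNCCC, bound by factors of the KLF family, on either strand, and matches of the latter may overlap each other.
Hba-a1, chr11:32283422-32283671, plus strand: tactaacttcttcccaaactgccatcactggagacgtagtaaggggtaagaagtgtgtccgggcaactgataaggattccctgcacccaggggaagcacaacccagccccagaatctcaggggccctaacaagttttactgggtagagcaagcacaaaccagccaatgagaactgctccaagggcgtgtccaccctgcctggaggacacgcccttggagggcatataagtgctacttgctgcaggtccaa
Hbb-bs, chr7:103827929-103828178, minus strand: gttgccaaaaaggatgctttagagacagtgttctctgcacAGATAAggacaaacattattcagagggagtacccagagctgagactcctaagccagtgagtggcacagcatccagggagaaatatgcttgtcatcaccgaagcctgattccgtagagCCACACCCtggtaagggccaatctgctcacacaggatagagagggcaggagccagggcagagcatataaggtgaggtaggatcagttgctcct
Alas2, chrX:150547167-150547416, plus strand: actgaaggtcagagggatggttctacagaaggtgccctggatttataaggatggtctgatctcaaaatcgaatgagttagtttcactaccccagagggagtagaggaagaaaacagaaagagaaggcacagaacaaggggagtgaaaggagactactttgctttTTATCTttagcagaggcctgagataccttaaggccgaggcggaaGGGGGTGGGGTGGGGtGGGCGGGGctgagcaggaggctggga
Kit, chr5:75574737-75574986, plus strand: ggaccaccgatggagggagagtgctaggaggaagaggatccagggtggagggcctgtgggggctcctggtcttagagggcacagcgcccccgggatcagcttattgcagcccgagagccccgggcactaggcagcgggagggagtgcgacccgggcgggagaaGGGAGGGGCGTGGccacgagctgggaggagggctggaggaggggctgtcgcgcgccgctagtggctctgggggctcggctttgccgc
In these windows AGATAA had 1 match in Hbb-bs, 1 in Alas2 and none in Hba-a1 or Kit. Other forms of the GATA site were not searched, and the Hba-a1 window holds tgataa, which differs in 1 base. CCNCNCCC had 1 match in Hbb-bs, 4 in Alas2, 2 in Kit and none in Hba-a1. Over all 32851 promoters of the RefSeq table, windows of the same length held AGATAA in 9.99% and CCNCNCCC in 45.9%. A match is a description of the letters and not a site of binding.

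Many genes outside the score differed between the hemoglobin-high and hemoglobin-low sums. With the mouse as a block, edgeR's quasi-likelihood test called 1562 of 12118 tested genes higher (12.9%) and 1334 lower (11%) in the high sums, at a Benjamini-Hochberg adjusted p under 0.05. The median log2 fold change of all tested genes was -0.01. With cells of other types left out, 1559 genes were higher (13%) and 1392 lower (11.6%) of 11990 tested, and 1424 of the higher and 1177 of the lower calls were shared with the first fit. A gene enters the test if it is expressed in enough sums of either group, so a gene near 0 in one group had to be high in the other. The share of all tested genes with no overlap between low and high sums was not counted. A lack of overlap is therefore given below as a description.

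Heme synthesis genes rose together. Of 14 listed, all tested, 13 rose and none fell, with a median log2 fold change of 1.45. Alas2, the erythroid enzyme that starts the pathway, was at 0, 0.41 and 3.37 CPM in the lowest, median and highest low sum. In the high sums it was at 11.95, 31.1 and 62.4 CPM, so that the groups did not overlap, and the log2 fold change was 6.35 ± 1.15 (SE, adjusted p = 0.00313). Its transcript was unevenly spread, since 58 of 154 members held at least 10 CPM and the top cell gave 13.5% of the members' counts. In low cells 4 of 154 reached 10 CPM.

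Fech, which inserts the iron, held 113, 242.5 and 340 CPM in the lowest, median and highest low sum and 369, 559 and 642 CPM in the high sums, without overlap. The mid-low and mid-high groups lay between them, with medians of 319 and 371 CPM. Its log2 fold change was 1.495 ± 0.134 (adjusted p = 4.94e-05). The mitochondrial transporter Abcb10 rose by 2.37 and Uros, the enzyme that closes the porphyrin ring, by 2.21. Alas1, the enzyme of other tissues, was the only listed gene not called, with a log2 fold change of -0.73.

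Heme breakdown genes moved less. Of 7 listed, 5 were tested and 2 rose (40%), beside 12.9% of all tested genes. Blvrb, a biliverdin reductase, rose by 0.90 on the log2 scale and Blvra, the other reductase, by 0.39. Hmox1, which opens the heme ring, did not pass the expression filter, with 0.356 CPM in the median low and 0.0944 CPM in the median high sum.

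Iron genes rose in 9 of 15 cases and fell in none, with a median log2 fold change of 0.48. Slc25a37, the mitochondrial iron importer mitoferrin 1, had the largest rise of the list. Its levels were 9.75, 17.5 and 25.9 CPM in the low sums and 35.9, 59.3 and 79.4 CPM in the high sums, without overlap, which gave a log2 fold change of 1.87 ± 0.16 (adjusted p = 4.43e-05). The ferritin heavy chain Fth1 rose by 0.93 and the ferrireductase Steap3 by 0.97, both in 8 of 8 mice. The transferrin receptor Tfrc rose by 0.75 ± 0.11 (adjusted p = 0.000777). It was higher in all 8 mice, but its ranges overlapped, with 162 to 366 CPM in low and 240 to 556 CPM in high sums.

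Genes of the red cell membrane rose in 23 of 26 tested cases of 27 listed, with a median log2 fold change of 1.01 and no fall. Epb42, which links band 3 to ankyrin, was at 0.808, 9.94 and 17.4 CPM in the lowest, median and highest low sum and at 63.5, 97.7 and 132 CPM in the high sums, without overlap. Its medians in the mid-low and mid-high groups were 13.98 and 46.8 CPM, and its log2 fold change was 3.67 ± 0.47 (adjusted p = 0.000434). Dmtn, the actin-bundling protein dematin, rose by 5.70. The spectrin gene Sptb rose by 2.88 and the ankyrin gene Ank1 by 1.05. Add1, Slc2a1 and Tmod1 were not called.

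Slc4a1, the anion exchanger of the red cell, was at trace level in every score group but the high one. Its low sums held 0 to 0.0929 CPM and its mid-high median was 0.018 CPM. Its high sums held 29.1, 42.1 and 155 CPM in the lowest, median and highest mouse. In counts, 10 reads in the low cells stood against 22892 in the members, a ratio of pooled levels of 2240 with a counting interval of 1220 to 4660. The fitted log2 fold change was 11.06 ± 0.36 (adjusted p = 6.02e-07) against the low sums and 11.6 against the mid-high group (adjusted p = 6.32e-08). Slc4a1 passed the expression filter through the high sums alone, so the direction of these calls was fixed beforehand.

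The Slc4a1 signal came from part of the members. At least 10 CPM was found in 40 of 154 members (26%), and in all 8 mice, with 1 to 8 such cells a mouse. Of the 473 cells outside the high group none reached 10 CPM. The upper limit of 0.634% by counting error takes cells as independent and leaves out the spread between mice. Among members the share at 10 CPM or more ran from 5.26% to 38.1% by mouse. After each cell was thinned to 20000 counts, 20.1% of members and no other cell had a count of the gene, and without thinning 33.8% of members and 5.84% of low cells had one. Single members reached up to 1584 CPM. The 40 members with Slc4a1 had a median globin score of 2334 CPM and the other members one of 834 CPM. In control mouse 3 the order was the other way, with 552 CPM in its 4 such members and 769 CPM in the rest. Within a mouse the rank correlation of Slc4a1 with the score over members had a median of 0.551 over the 8 mice, a description over 17 to 22 cells of 1 animal each that share a library preparation.

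**Figure D2:**
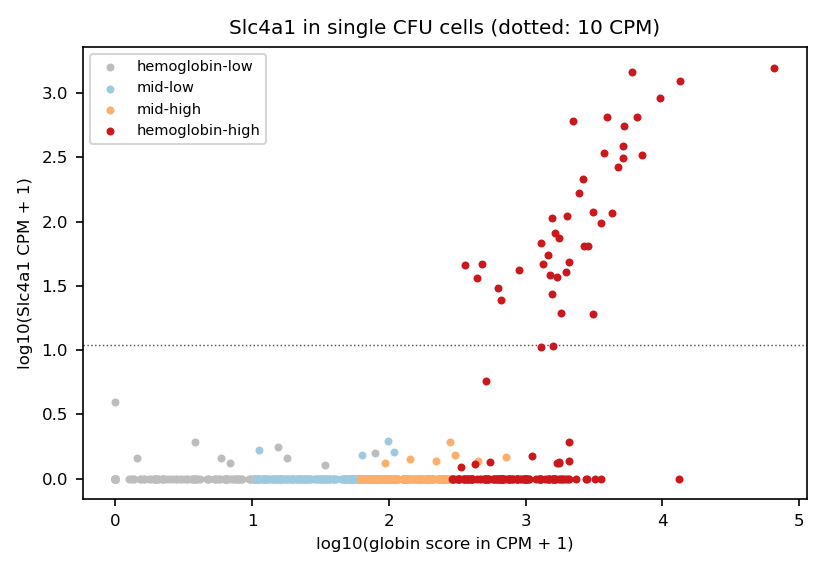
Slc4a1 against the globin score in 627 CFU cells, both on log10(CPM + 1) axes, with the score groups in colour and 10 CPM as a dotted line. Cells above the line are all of the high group, 40 of 154, and the other 473 cells stay under it.

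Ackr1, the Duffy antigen of the red cell, had a similar but less sharp pattern. Its low sums held at most 0.0697 CPM and its high sums 16.5, 27.2 and 41.6 CPM, with 64 of 154 members at 10 CPM or more and 23 of 162 mid-high cells. Its fitted log2 fold change was 10.20 ± 0.48 (adjusted p = 2.06e-06), and it too passed the expression filter through the high sums alone.

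Transcription factors of the erythroid program mostly rose or were not called. Of 20 tested, 10 rose (50%) and 1 fell (5%), with a median log2 fold change of 0.53. Over all tested genes 12.9% rose and 11% fell. With cells of other types left out, 10 of the 20 rose and 2 fell. Klf1 held 367, 577 and 728 CPM in the low sums and 782, 837 and 1039 CPM in the high sums. It was higher in 8 of 8 mice without overlap, and rose by 0.77 ± 0.07 on the log2 scale (adjusted p = 6.62e-05). Gata1, the master factor of the lineage, rose by 0.62 ± 0.12 (adjusted p = 0.00397) in 7 of 8 mice, with overlapping ranges of 218 to 502 and 474 to 605 CPM. The largest rises were those of Sox6 and E2f2. Sox6, a repressor of embryonic globin genes, rose by 3.02 ± 0.40 (adjusted p = 0.000506), from a median of 9.03 CPM to 49.2 CPM. E2f2, a cell cycle factor that acts late in erythropoiesis, rose by 2.99 ± 0.32, from 7.09 to 53.9 CPM. Cbfa2t3, the corepressor ETO2, fell by 1.45 ± 0.22 on the log2 scale (adjusted p = 0.00127), from 29.6 to 61.6 CPM in low sums to 7.86 to 18.7 CPM in high ones. Foxo3 was at 47.4 and 52.2 CPM in the median low and high sum and was not called.

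Progenitor genes fell. Of 22 listed, 18 were tested, 11 fell and none rose, with a median log2 fold change of -2.14. With cells of other types left out, 10 of 17 fell with a median of -1.88. Kit, the receptor for stem cell factor, was at 227, 314 and 417 CPM in the low sums and at 43.8, 52.6 and 77.6 CPM in the high sums, without overlap. Medians of 202 and 131 CPM in the mid-low and mid-high groups made it a graded fall of 2.32 ± 0.10 on the log2 scale (adjusted p = 2.06e-06). After thinning to 20000 counts, 93.5% of low and 51.3% of high cells held a count of Kit, and without thinning 96.8% and 91.6% did.

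Gata2, the GATA factor of stem and progenitor cells, fell by 2.96 ± 0.44 on the log2 scale (adjusted p = 0.00102), from 41.6, 63.9 and 122 CPM to 2.43, 12.8 and 16.5 CPM. Myb, a factor of proliferating progenitors, fell by 1.95 ± 0.13 (adjusted p = 7.66e-06) and Myc by 1.07 ± 0.10 (adjusted p = 4.94e-05), both in 8 of 8 mice. The ranges of Myb did not overlap, at 142 to 321 and 23.3 to 94.5 CPM, and those of Myc did, at 248 to 599 and 78.05 to 315 CPM. Cd34 was at 0.0414 to 0.256 CPM in the high sums and ranged from 0.147 to 94.1 CPM in the low sums, with 20.8% of its low counts in 1 cell, and was not called (log2 fold change -4.92, adjusted p = 0.0989). It was called lower by DESeq2 (adjusted p = 0.000167), with a filter at a mean of 8 CPM (0.0416), with all 4 score groups in the fit (0.00468) and without the mouse block (0.000794). Vim, an intermediate filament gene, was 1 of the 11, and was not called with cells of other types left out (-3.43, adjusted p = 0.0829). Spi1, the myeloid factor PU.1, did not pass the expression filter and was at 0.156 CPM or less in the high sums.

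**Figure D3:**
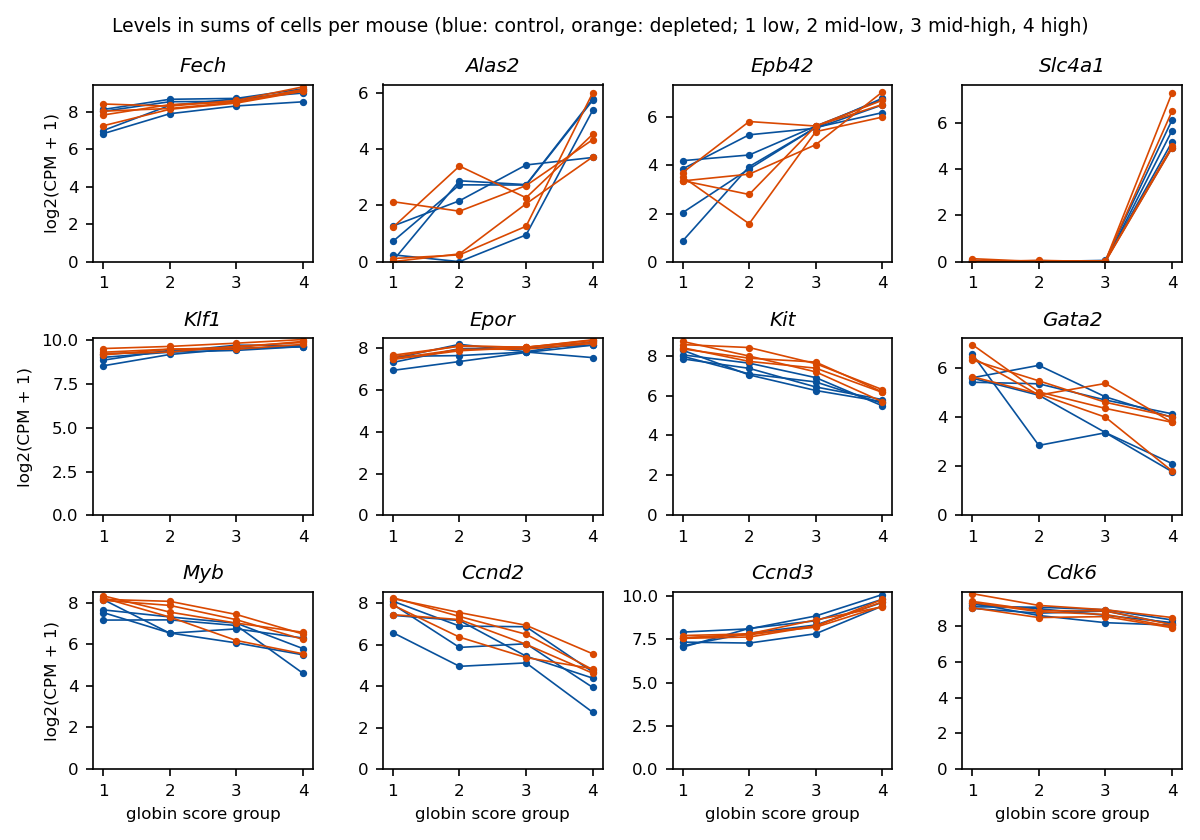
Level of 12 genes in the sums of each mouse across the globin score groups, as log2(CPM + 1), 1 line for each of 8 mice, control in blue and depleted in orange. By their medians over mice, Fech, Epb42 and Ccnd3 climb and Kit, Gata2, Myb, Ccnd2 and Cdk6 descend over the score groups, while Slc4a1 is above trace level in the high group.

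Receptors and signalling genes of the growth factors were mixed. Of 18 tested genes of 22 listed, 2 rose (11.1%) and 4 fell (22.2%), with a median log2 fold change of -0.26. Over all tested genes the shares were 12.9% and 11%, so rises were not more frequent here. The erythropoietin receptor Epor rose by 0.84 ± 0.12 (adjusted p = 0.000661) in 7 of 8 mice, with 121, 179 and 200 CPM in low and 185, 301.5 and 334.5 CPM in high sums. The adaptor Gab1 rose by 1.87 ± 0.14, from a median of 14.6 CPM to 49.1 CPM without overlap. The glucocorticoid receptor gene Nr3c1 fell by 0.72 and the erythropoietin-induced cytokine gene Osm by 1.53 on the log2 scale. Osm was not called with cells of other types left out (-1.20, adjusted p = 0.062). The kinase gene Pim2 fell by 1.64 (adjusted p = 0.0216). It was not called in the fits without control mouse 3 or without any 1 depleted mouse. In those fits the Pim2 log2 fold change was -1.58 to -1.47 (adjusted p = 0.0511 to 0.0532). In cells with at least 50 CPM of Klf1, a choice made after seeing the data, it was -0.826 (adjusted p = 0.56). Erfe, the gene of the hormone erythroferrone, was at 2.63 and 3.24 CPM in the median low and high sum and was not called (adjusted p = 0.743). The survival gene Bcl2l1 was at 9.41 and 11.8 CPM and was not called either (adjusted p = 0.407).

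The 12 largest rises by the naming rule were, after Slc4a1 and Ackr1, those of Acp5, Alas2, Redrum, Dmtn, Scd1, Rab3il1, Clcn2, Vangl1, Tac2 and Tspan15. Acp5, an acid phosphatase, rose by 6.86 ± 1.03 on the log2 scale, with 0 to 5.18 CPM in low and 29.2 to 85.4 CPM in high sums. Redrum, an erythroid long noncoding RNA, rose by 6.14, from at most 9.19 CPM to 21.5, 38.9 and 62.3 CPM. The desaturase Scd1 rose by 4.83 and Rab3il1, an exchange factor for Rab GTPases, by 4.60. The chloride channel Clcn2, the polarity gene Vangl1, the tachykinin gene Tac2 and the tetraspanin Tspan15 rose by 3.95 to 4.55. For all 12 genes the ranges of low and high sums did not overlap.

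The 12 largest falls were those of Mpo, Dpp4, Slc45a3, Plac8, Dusp2, Prtn3, Rgs19, Kyat3, Ctsc, Prkch, Slc22a3 and Dock2. Mpo and Prtn3 are granule proteins of neutrophil precursors and belong to the myeloid list. Mpo had a fitted log2 change of -10.26 and a low range of 0.0232 to 2921 CPM. With cells of other types left out its change was -1.71 and it was not called (adjusted p = 0.41). Prtn3 went from -8.03 to -3.75 (adjusted p = 0.00879). The other 10 were called in both fits, with log2 fold changes of -8.81 to -6.50 in the first and -8.55 to -5.91 in the second. The members together held 98 counts of Slc45a3, 44 of Dusp2, 105 of Rgs19 and 63 of Dock2. Genes this near 0 in the high sums passed the expression filter through the low sums. The direction of their calls was therefore fixed beforehand in both fits. The ranges of Mpo, Dpp4 and Prkch overlapped and those of the other 9 did not. Among the members, the top cell held 98.3% of the counts of Dpp4, 92.4% of Kyat3, 70.5% of Dusp2 and 58.8% of Ctsc. In the rest of the 12 genes the top cell held 6.9% to 49.5%. Slc45a3, a membrane transporter, was at 19.3, 35.8 and 46.2 CPM in the low sums, at 10.9 and 2.22 CPM in the median mid-low and mid-high sums, and at 0, 0.0284 and 2.002 CPM in the high sums. Rgs19, a regulator of G protein signalling, went the same way, with low sums of 16.6, 41.5 and 79.1 CPM and high sums of 0 to 1.11 CPM.

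Genes of cell division rose. All 20 genes of the G2/M list rose, with a median log2 fold change of 1.23, and 18 of 20 S phase genes rose, with a median of 0.83. The summed G2/M level was 1878, 2661 and 3114 CPM in the lowest, median and highest low sum and 4364, 5490 and 6083 CPM in the high sums. It was higher in 8 of 8 mice, by 1.04 ± 0.26 on the log2 scale (mean ± SD of 8 differences), and the groups did not overlap. The exact two-sided sign-flip permutation test gave p = 0.00781, the smallest that 8 mice allow (0.0234 adjusted over 9 values compared per mouse). The proliferation marker Mki67 rose by 1.27 ± 0.14, from 118, 182 and 265 CPM to 267, 374 and 672 CPM. The mitotic kinesin Kif23 rose by 2.07 and Aurka, a spindle kinase, by 1.81. In S phase, the ribonucleotide reductase genes Rrm2 and Rrm1 rose by 1.336 and 1.105. Ung and Hells were the S phase genes not called.

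D-type cyclins changed in opposite directions. Ccnd3 rose by 2.28 ± 0.12 (adjusted p = 2.55e-06), from 132, 189 and 242 CPM in low to 669, 810.0 and 1096 CPM in high sums. Ccnd2 fell by 3.26 ± 0.17 (adjusted p = 2.7e-06), from 95.2, 244 and 309 CPM to 5.70, 24.3 and 46.4 CPM. Neither gene's ranges overlapped. Cdk6, a kinase partner of D cyclins, fell by 1.03 ± 0.08 (adjusted p = 1.93e-05), from 514 to 912 CPM in low sums to 242 to 360 CPM in high ones. Ccne1, Ccne2, Cdk2, Cdk4, E2f1, Rb1, Rbl1 and the inhibitor Cdkn2c rose, by 0.23 to 1.69 on the log2 scale. Of the list of cyclins, kinases and inhibitors, 9 of 16 tested genes rose (56.2%) and 3 fell (18.8%), the last including Ccnd1. Over all tested genes 12.9% rose and 11% fell.

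Genes that build ribosomes fell while ribosomal protein genes did not. Of 20 ribosome biogenesis genes, 16 fell and none rose, with a median log2 fold change of -0.42. Their summed level was 9015 to 11870 CPM in low and 6557 to 8558 CPM in high sums, lower in 8 of 8 mice without overlap. The largest falls were those of Rrp9, Rrs1 and Wdr12, of 0.82, 0.75 and 0.70 on the log2 scale. Of 87 cytosolic ribosomal protein genes tested, 21 rose (24.1%) and none fell, beside 12.9% and 11% of all tested genes. Their median log2 fold change, however, was 0.08. The summed level was 92020 CPM in the median low and 91510 CPM in the median high sum. With cells of other types left out, 2 ribosomal protein genes fell. Single ribosomal protein genes are uncertain, because reads can be shared with pseudogenes.

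**Figure D4:**
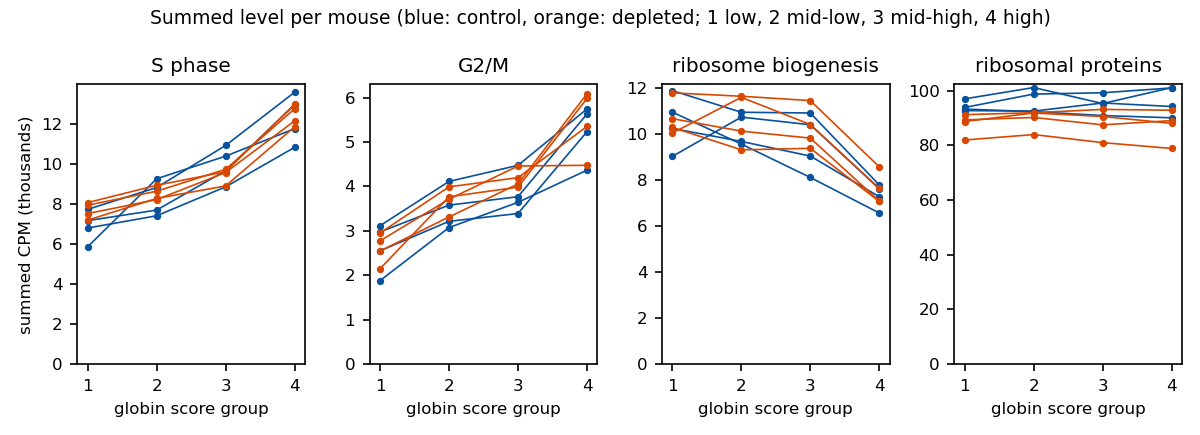
Summed CPM of 4 gene lists in each mouse across the globin score groups, 1 line for each of 8 mice, control in blue and depleted in orange. S phase and G2/M levels climb, ribosome biogenesis levels are lowest in the high group, and ribosomal protein levels stay between 78900 and 101200 CPM.

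Late steps of red cell maturation were mixed. Of 22 tested genes of enucleation and organelle clearance, 6 rose (27.3%) and 4 fell (18.2%), with a median log2 fold change of 0.20. Over all tested genes 12.9% rose and 11% fell. Ube2l6, a ubiquitin-type conjugating enzyme, rose by 1.35 and Bnip3l, a mitophagy receptor, by 0.50 ± 0.07 (adjusted p = 0.00105, 7 of 8 mice). The related Bnip3 fell by 2.46 and Rac1, a GTPase, by 0.72. Trim58, a ubiquitin ligase of enucleation, was at 4.396 and 8.61 CPM in the median low and high sum and was not called (adjusted p = 0.0639). Xpo7, a nuclear exporter, was at 6.67 and 5.04 CPM and was not called (adjusted p = 0.786).

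Metabolic genes changed in both directions. Of 20 tested, 9 rose (45%) and 8 fell (40%), beside 12.9% and 11% of all tested genes. Among the rises were Bpgm, which makes 2,3-bisphosphoglycerate, at 1.37 ± 0.24, the peroxiredoxin gene Prdx2 at 1.19 ± 0.07, and the carbonic anhydrase gene Car2 at 0.75 ± 0.08. The glycolytic genes Pgam1, Aldoa, Eno1, Ldha, Pgk1 and Hk1 fell, by 0.37 to 2.28 on the log2 scale, while Pklr, the red cell pyruvate kinase gene, rose by 0.72 (adjusted p = 0.00129). Gapdh (0.03) and Pfkl (-0.25) were not called. Car1 fell by 0.45 ± 0.13 (adjusted p = 0.0329), from 5324 to 3536 CPM in the median sum, in 7 of 8 mice. It was not called in the fits without control mouse 1, 2 or 4 or without depleted mouse 3 or 4 (log2 fold change -0.467 to -0.435, adjusted p = 0.054 to 0.0614). With cells of other types left out its log2 fold change was -0.602 (adjusted p = 0.000939).

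**Figure D5:**
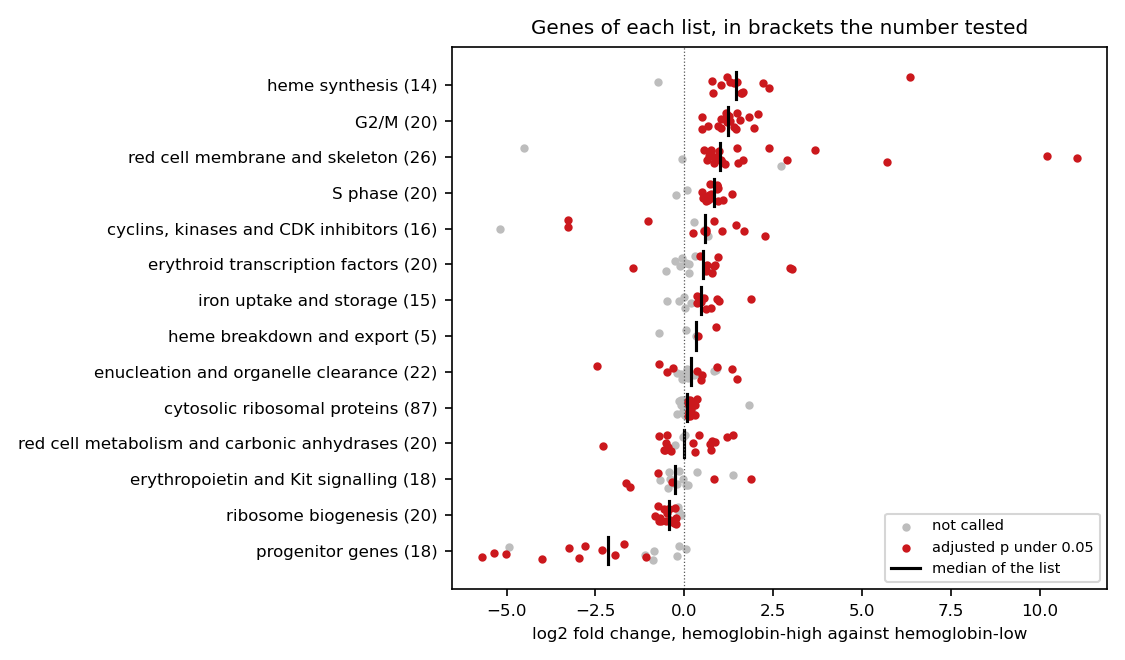
Log2 fold change, hemoglobin-high against hemoglobin-low sums of 8 mice, for each tested gene of 14 lists, with genes at an adjusted p under 0.05 in red and the list's median as a bar. Heme synthesis, G2/M, membrane and S phase genes lie mostly to the right, ribosome biogenesis and progenitor genes to the left.

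Of megakaryocyte markers, which are shared in part with early erythroid cells, 2 of 5 tested genes of 10 rose (40%). Over all tested genes 12.9% rose. The summed level of the 10 markers was 10.7 to 25.9 CPM in low and 26.6 to 45.2 CPM in high sums. At least 3 of the markers were held by 19 members against 3 low cells. Gp9, a platelet glycoprotein, rose by 2.32 ± 0.29 (adjusted p = 0.00039), from a median of 3.597 CPM to 13.1 CPM. Vwf rose by 2.11 ± 0.49 (adjusted p = 0.0118) and had a log2 fold change of 2.12 with cells of other types left out, where it was not called (adjusted p = 0.0651). Pf4 and Itga2b, defining markers of megakaryocytes, were at medians of 2.18 and 2.61 CPM in high sums and were not called. Gp6 had no count in the members. The part of megakaryocyte RNA in these rises was not tested.

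Hemoglobin-high cells also differed from the cells ranked just under them, those of the mid-high group. Against these, 443 of 11922 tested genes were higher (3.72%) and 341 lower (2.86%). The 2 comparisons share the high sums and are not independent. Heme synthesis genes were higher in 11 of 14 cases with a median log2 fold change of 0.56, and membrane genes in 18 of 25 cases with a median of 0.48. Of G2/M genes 12 of 20 were higher, and of ribosome biogenesis genes 12 of 20 were lower. Ccnd3 was higher by 1.32 (adjusted p = 8e-05), Epb42 by 1.13 (adjusted p = 0.00353) and Kit was lower by 1.13 on the log2 scale (adjusted p = 0.000754). The number of calls fell from 784 to 516 without depleted mouse 1, and to 515 in the fit without the mouse block.

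Levels were followed over the 4 score groups, where the call already sets the order of the top and bottom. The mean log2 level climbed at each step in 1028 of the 1562 genes called higher and fell at each step in 1000 of the 1334 called lower, and over all 12118 tested genes 1469 climbed and 2262 fell at each step. Among the 13 rising heme synthesis genes all 13 climbed at each step, and 20 of 23 membrane genes and 18 of 20 G2/M genes did. Of the 11 falling progenitor genes 9 fell at each step, and of the 16 falling ribosome biogenesis genes 8 did.

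Treatment groups were compared within the members. No gene of 11988 (0.0%) was called between depleted and control mice in the high sums by edgeR's quasi-likelihood test, with 892 at an unadjusted p under 0.05, while DESeq2 called 74. With a filter at a mean of 8 CPM, 14 genes were called, and with cells thinned to 20000 counts 16. In simulated sums of this comparison edgeR recovered 39.6% of 2-fold changes, so a lack of calls does not show a lack of change. The high against low difference itself was called different between treatments for no gene of 14063 (0.0%), with 546 at an unadjusted p under 0.05, while DESeq2 called 43. Within the members, the median log2 difference, depleted against control, was 0.03 over 20 G2/M genes, 0.06 over 14 heme synthesis genes and 0.04 over 25 membrane genes, beside 0.02 over all genes. Over 87 ribosomal protein genes it was -0.27, with none called.

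The level of the score itself was not fixed between mice. The median score over all passing CFU cells was 203, 111, 60.1 and 265 CPM in control mice 1 to 4 and 75.8, 65.8, 71.3 and 96.9 CPM in depleted mice 1 to 4. The mean was 77.5 ± 13.6 CPM (SD, n = 4) in depleted and 160.0 ± 91.9 CPM (SD, n = 4) in control mice, and the exact two-sided permutation test gave p = 0.171 (0.386 adjusted over the 9 values), where 0.0286 is the smallest possible. Control mice spread widely, and control mouse 3 was the lowest of all 8. Without it the difference went from -82.5 to -116 CPM with p = 0.0286 by the same exact test.

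The share of barcoded cells did not differ beyond the spread between mice. The deposited calls mark 90.8% ± 8.09 (SD, n = 8) of hemoglobin-high and 93.8% ± 6.49 (SD, n = 8) of hemoglobin-low cells as barcoded. The difference of -2.99 percentage points was smaller than its SD of 11.1 points over mice, and the exact sign-flip permutation test gave p = 0.438 (0.787 adjusted over the 9 values). The number of genes per cell, at 20000 counts outside the score, was slightly lower in members. Median cells held 4221 ± 80.7 genes (SD, n = 8) in the high and 4318.2 ± 90.5 (SD, n = 8) in the low group, a difference of -97.2 in the same direction in 8 of 8 mice (exact sign-flip permutation p = 0.00781, 0.0234 adjusted over the 9 values). At 100000 counts per cell the difference was -121 with p = 0.0859 by the same exact test.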

How the data were processed

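Single-cell RNA of sorted CFU wells from 8 mice was analysed. Per the submitters' processing notes, Trim Galore 0.5, STAR 2.6.0 and HTSeq 0.6.1 were used; the sources used here do not give the genome build or annotation. The authors deposited raw counts per gene, and symbols that stood on several of the 55401 rows were added. The deposited table of wells gives barcode calls and a score, the Shannon index of barcode diversity; columns were matched to samples by name. Of 3070 columns, 766 CFU and 192 HSC columns were used, the latter for globin background, and the other 2112 were not used here.

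Members and lists were chosen with earlier results of these data known. The top and bottom floor(n/4) cells of each mouse were summed and tested with edgeR 4.0.16 (TMM, default expression filter, mouse as block, quasi-likelihood, Benjamini-Hochberg) in R 4.3.3, without the 4 score globins in the table or library sizes. SE is the log2 fold change over the square root of F. Both sums of a pair come from the same mouse; their deviations from the group means correlated at 0.0661 to 0.188 across genes. Single values were compared with exact permutation tests. Named genes are the 12 largest rises and falls at a mean of at least 10 CPM with 1 direction in all 8 mice (symbols of unnamed models left out), 33 key genes, and up to 3 called genes each way per list. DESeq2 1.42.0, other filters, cuts and left-out mice were alternatives. The fits were tested on simulated sums with few changed genes. For high against low, 41.5% of 2-fold and 67.4% of 4-fold changes were recovered, and 2.8% of calls were false. For depleted against control within the members these values were 39.6%, 64.1% and 4.9%. No doublet caller was run; wells over 10000 genes (20 CFU) were left out by the rule. Intervals and limits cover counting error only, and reads are not independent molecules. Promoters came from RefSeq, where 77 of 114 named genes matched. Ahsp was not analysed here. Some of the named genes are not reported here.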

Additional observations from a re-analysis of the deposited data

Results flagged for a closer look

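For key genes reported here and per-mouse values of the members, 70 groups of 4 mice were screened. The search was for a mouse that stands apart from the other 3. It found 4 such groups, near the share of about 1 in 20 that chance alone gives. Control mouse 3 gave 2 of them. Its hemoglobin-high sum held 12 CPM of Hmox1, the heme oxygenase gene, against 0.0656 to 0.195 CPM in the other control mice, and 57.6% of all Hmox1 counts of the members were in 1 cell. It held 240 CPM of Tfrc, the transferrin receptor gene, against 389 to 391 CPM. This mouse also had the most low cells with markers of another type, 9 of 17, and the lowest median globin score. Control mouse 4 held 80 CPM of Foxo3 against 46 to 48.6 CPM. Control mouse 2 held 0.908 CPM of the embryonic globin gene Hbb-bh1, where the other 3 had no count, and all of it came from 1 cell. A mouse with any count beside 3 without is always flagged.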

How the results depend on the processing

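Thinning cells to 20000 counts lowered the number of genes called between hemoglobin-high and hemoglobin-low cells from 2896 to 1520, with 5451 genes tested, and the top against the bottom 10% of the score gave 1734, with fewer cells a sum. Against the mid-high group, DESeq2 called 1681 genes in place of 784, the fit without the replicate block called 515, and leaving out 1 mouse in turn gave 516 to 685; the block changed no other count by over 1.5 times. Between treatments, DESeq2 called 74 genes within the members and 43 for the high against low difference, and within the members the filter at a mean of 8 CPM gave 14 and thinning 16, in place of 0. For the median score, leaving out 1 mouse gave differences of -116 to -47.4 CPM, with p = 0.0286 by the exact permutation test without control mouse 3. Genes per cell at 100000 counts differed by -121 with an exact permutation p of 0.0859. The cause of these differences was not tested. The G2/M difference and the barcoded share kept direction and side of the threshold in every alternative run. Of 111 named genes, 67 had a value in all 20 alternatives, thinning covering the fewest, and 56 of these kept both throughout; 2 of 2153 gene and setting pairs reversed, both of Xpo7, which was not called (-0.214) and came to 0.0186 between the top and bottom 10% and to -0.516 to 0.00884 with 1 mouse left out. A refit of cells with at least 50 CPM of Klf1, chosen after seeing the data, called 2983 genes. Depth limits genes near 0 in one group, whose fold rests on few reads.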

Other observations

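Of 9 tested stress and immediate early genes, 3 fell (33.3%), 1 rose (11.1%) and 5 were not called in hemoglobin-high against hemoglobin-low cells. Over all tested genes 11% fell and 12.9% rose. With cells of other types left out, 2 of the stress genes fell. Fosb, Jun and Junb were among those not called. Egr1 was at 0.147, 14.8 and 35.4 CPM in the lowest, median and highest low sum and at 0.0414, 0.268 and 3.36 CPM in the high sums, a fall of 4.95 ± 1.05 on the log2 scale (edgeR adjusted p = 0.00728). Ier2 fell by 1.003 ± 0.185 and Fos by 0.97 ± 0.245 on the same scale, but Fos was not called with cells of other types left out (adjusted p = 0.163). The heat shock gene Dnajb1 rose by 0.80 ± 0.11, from a median of 156 CPM to 265 CPM, in 8 of 8 mice.

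Of 3 tested stem cell markers of 10, 1 rose, 1 fell and Cd34 was not called. Mllt3 rose by 1.103 ± 0.11 on the log2 scale (adjusted p = 9.55e-05), from 30.3, 47.8 and 71 CPM to 65.3, 96 and 138 CPM, while Meis1 fell by 2.79 ± 0.70 (adjusted p = 0.0166). Procr was at a median of 0.0528 CPM in the high sums, and Fgd5 and Hoxb5 had no count in the median one. The mitochondrial genome was level between the groups: its summed RNA was 33160 CPM in the median low and 34040 CPM in the median high sum, higher in 5 of 8 mice.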
